A study of Rattus norvegicus with 138 samples.

Results

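The guide strands miR-99a-5p, miR-99b-5p, miR-100-5p, miR-125a-5p and miR-125b-5p were followed in rat serum, all 5 being present among the 471 mature miRNAs of the count table. They were chosen by name, with earlier results of these data known. They are set beside let-7c-5p and let-7e-5p, guide strands made from the same gene clusters. The serum came from male Sprague-Dawley rats, 3 months old at surgery, that received 2 metal pellets in the gastrocnemius muscle of each limb operated on, and its small RNA was sequenced. The tested pellets were depleted uranium (DU), lead (Pb), copper (Cu), cobalt (Co), nickel (Ni), iron (Fe), tungsten (W) or aluminium (Al), and tantalum (Ta), an inert metal, was the surgical control. Serum was drawn at 1, 3, 6 and 12 mo after surgery, when rats were 4, 6, 9 and 15 months old. Every group, Ta included, had the operation and carried 4 pellets, so no group shows rats without surgery. The libraries formed 35 groups, 33 of 4 libraries and 2 of 3 (W and Ta at 6 mo), and Ni had no group at 12 mo. Nothing in the labels says which rat gave which library, so every p-value measures the spread between these libraries.

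A miRNA guide strand is cut from a hairpin precursor, loaded into an Argonaute protein and pairs with messenger RNAs mainly through its seed, the bases just after its 5′ end. The miR-99/100 guides are relatives of the miR-10 family and are known in human and mouse cells for restraining mTOR and IGF1R, components of growth signalling. The miR-125 guides are the vertebrate counterparts of worm lin-4 and are known from mouse and human work for regulating blood stem cells, macrophages and p53. The let-7 guides favour differentiation and repress growth genes such as Ras and Lin28. In serum, miRNAs travel in vesicles, on lipoproteins and in Argonaute complexes shed from many tissues and blood cells.

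The sequences show why the 5 guides form 2 families, since the seed (bases 2 to 8, in capitals) is shared within a family and not with the clustered let-7 guides. All are written 5′ to 3′ from RefSeq (build GRCr8). The table has no mature entry for miR-99a-5p, so the Mir99a hairpin is printed with its matching seed letters in capitals.
miR-100-5p: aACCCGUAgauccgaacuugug
miR-99b-5p: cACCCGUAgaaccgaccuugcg
Mir99a hairpin: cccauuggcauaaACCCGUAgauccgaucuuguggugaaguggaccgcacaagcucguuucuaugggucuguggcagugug
miR-125a-5p: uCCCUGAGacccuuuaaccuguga
miR-125b-5p: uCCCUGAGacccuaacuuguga
let-7c-5p: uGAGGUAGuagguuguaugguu
let-7e-5p: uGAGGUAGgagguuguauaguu
Counting positions from 1 at the 5′ end of miR-100-5p, the Mir99a hairpin differs from it over 22 bases by A16U alone. The differences of miR-99b-5p from miR-100-5p are A1C, U11A, A16C and U21C. miR-125a-5p and miR-125b-5p share their first 13 bases. let-7e-5p differs from let-7c-5p by U9G and G19A. How the authors' counting treated reads with a mismatch is not given in the sources used here, so how cleanly reads of miR-99a-5p and miR-100-5p were kept apart was not tested.

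The genes lie in 3 clusters, each holding a miR-99/100 gene, a let-7 gene and a miR-125 gene on the plus strand in that order. In GRCr8 the compact cluster Mir99b, Mirlet7e and Mir125a spans 696 bases at chr1:67350064-67350759, inside the span of the protein-coding gene Spaca6. Mir99a, Mirlet7c1 and Mir125b2 span 45257 bases at chr11:29687392-29732648, overlapping the long noncoding RNA gene LOC103693508. Mir100, Mirlet7a-2 and Mir125b1 span 51828 bases at chr8:50798295-50850122, overlapping Mir100hgl and Lnc215. Exons and introns of these overlapping genes were not analysed here. let-7c-5p is also made from Mirlet7c2 on chromosome 7, and miR-125b-5p can come from either of its genes, so counts of these guides sum over loci. Each cluster thus joins members of different seed families, and each seed family is spread over different clusters, which allows both kinds of kinship to be compared.

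Library totals ran from 518 to 6406599 counts (median 685384.5). The 3 mo libraries detected a median of 99.5 miRNAs, against 216 at 1 mo, 170 at 6 mo and 186.5 at 12 mo. There were 6 near-empty libraries under 20000 counts, namely Co at 1 mo replicate 1, W at 12 mo replicate 3 and replicates 3, 3, 3 and 4 of Ni, Al, Ta and DU at 3 mo. The other 132 libraries had at least 70454 counts. In the Pb library of replicate 2 at 6 mo, miR-125a-5p and let-7c-5p had 0 of 156881 counts beside 4956 counts of miR-99a-5p. Among markers of possible sources, the summed liver list (3 of 3 in the table) had medians of 65493, 68044, 89246 and 208490 CPM (each count scaled to a library of fixed size) at 1, 3, 6 and 12 mo, and the platelet list (4 of 4) 5122, 11138, 4765 and 5847 CPM. The skeletal muscle list (5 of 5), from the tissue that held the pellets, had 408, 1233, 1449 and 887 CPM, with 1 marker at 0 in every 3 mo library. The erythrocyte list (5 of 6) had 4007, 4997, 4304 and 3101 CPM and the leukocyte list (4 of 4) 5274, 5136, 3472 and 3515 CPM.

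The 5 guides were abundant. Together they took 5.58% of all counts and a median of 4.67% of a library (0.334% to 17.1%). By total counts miR-99a-5p was 11th of the 471 miRNAs, with 2.43% of all counts and reads in every library. miR-125a-5p followed at 1.12%, miR-100-5p at 1.06%, miR-125b-5p at 0.514% and miR-99b-5p at 0.459%. Of the partners, let-7c-5p took 2.81% and let-7e-5p 0.0351%. The members of 1 cluster therefore differed widely in level, let-7e-5p being far below miR-99b-5p and miR-125a-5p although all are cut from hairpins within 696 bases. A read spans a whole guide, so CPM compares miRNAs without scaling to length, though ligation preferences of the library kit were not measured.

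Levels over all metals are given in CPM scaled with TMM factors, as the median with the lowest and highest of 36, 36, 34 and 32 libraries at 1, 3, 6 and 12 mo. miR-99a-5p had medians of 20528, 6295, 24766 and 23801 CPM (1811 to 93258, 13.4 to 74697, 6954 to 79365 and 1707 to 109499). miR-100-5p had medians of 11454, 3785, 10315 and 7487 CPM (168 to 44328, 0 to 32252, 3705 to 64053 and 611 to 49187). miR-99b-5p had medians of 6045, 1597, 5359 and 2135 CPM (776 to 17764, 0 to 8808, 257 to 19391 and 0 to 18619). All 3 miR-99/100 guides were thus at their lowest median at 3 mo, with ranges that overlapped between time points. miR-125a-5p had medians of 6814, 10395, 10668 and 12612 CPM (0 to 36562, 0 to 28056, 0 to 35305 and 569 to 63923). miR-125b-5p had medians of 3499, 3451, 4941 and 5487 CPM (1123 to 11840, 0 to 9804, 12.9 to 12543 and 1071 to 30743). The median of miR-125a-5p was thus higher at 3 mo than at 1 mo, and that of miR-125b-5p nearly the same. let-7c-5p had medians of 16791, 51094, 27774 and 26134 CPM, peaking at 3 mo, and let-7e-5p had medians of 254, 271, 390 and 312 CPM.

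**Figure D1:**
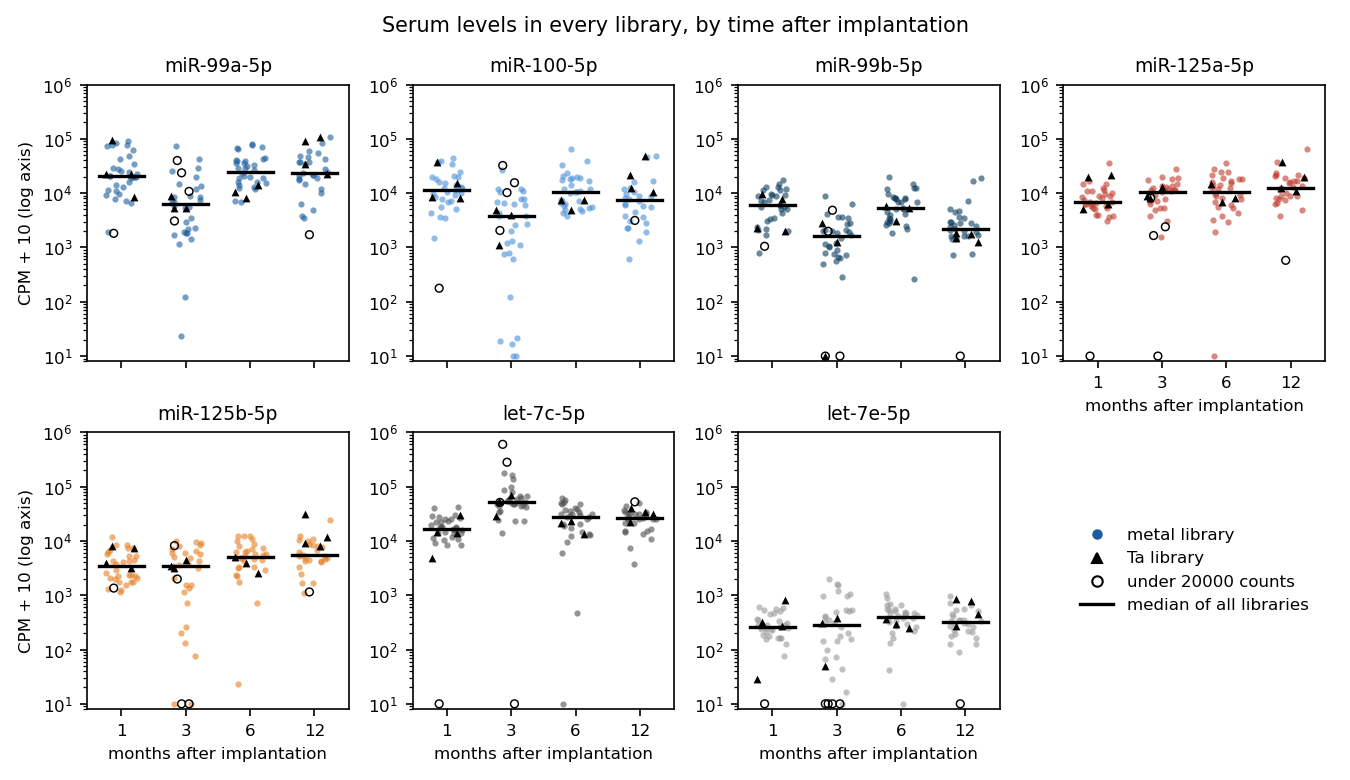
CPM plus 10 on a log axis in each library, by months after implantation, for the 5 members and the 2 partners; circles are metal libraries, triangles Ta libraries, open circles libraries under 20000 counts, and bars the median. The miR-99/100 medians dip at 3 mo (6295 CPM for miR-99a-5p) while let-7c-5p peaks (51094 CPM).

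Between 1, 3 and 6 mo, the miR-99/100 guides were called as changed and the miR-125 guides were not. Time points were compared in an edgeR quasi-likelihood fit of all libraries, averaging over the 8 metals sampled at every time point (Ta among them, Ni left out), with a call at adjusted p under 0.05 over 320 miRNAs (Benjamini-Hochberg). At 3 mo against 1 mo, miR-99a-5p fell by 1.48 ± 0.33 on the log2 scale (± SE; adjusted p = 8.43e-05, edgeR). miR-100-5p fell by 1.47 ± 0.39 (adjusted p = 9.33e-04) and miR-99b-5p by 1.68 ± 0.32 (adjusted p = 6.10e-06). Neither miR-125 guide passed the test, with log2 changes of 0.17 for miR-125a-5p (95% interval -0.40 to 0.75) and -0.05 for miR-125b-5p (-0.74 to 0.64). So 3 of the 5 members fell and 0 rose, where 35.6% of all tested miRNAs fell and 8.12% rose.

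The fall of the miR-99/100 guides was close to the median of all serum miRNAs. The median log2 change of all 320 miRNAs at 3 mo against 1 mo was -1.62, so that miR-99a-5p stood 0.14 above that median, miR-100-5p 0.16 above it and miR-99b-5p at -0.06 from it. Without the near-empty libraries the 3 guides stood at -0.05 (miR-99a-5p), -0.18 (miR-100-5p) and -0.09 (miR-99b-5p) from the median. The miR-125 guides stood 1.80 (miR-125a-5p) and 1.57 (miR-125b-5p) above it. The scaling moves these values. With RLE size factors the median of all miRNAs was -1.28, miR-99a-5p at -0.62 (adjusted p = 0.0905) and miR-100-5p at -0.64 (adjusted p = 0.192) were not called, miR-99b-5p at -0.84 kept its call (adjusted p = 0.018), and miR-125a-5p at 0.94 was called as higher (adjusted p = 0.00509). DESeq2 (0.69, adjusted p = 0.0156) and library totals alone (0.74, adjusted p = 0.0372) also called miR-125a-5p as higher. miR-125b-5p was at 0.75 with RLE and not called, so its sign at this step depends on the scaling. In the Ta libraries alone (4 against 4) 0 of the 5 members were called, with log2 changes of -2.38 for miR-99a-5p, -1.69 for miR-100-5p and -2.26 for miR-99b-5p.

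At 6 mo against 3 mo the 3 miR-99/100 guides rose. The log2 changes were 1.50 ± 0.34 for miR-99a-5p (adjusted p = 2.54e-04, edgeR), 1.21 ± 0.39 for miR-100-5p (adjusted p = 0.0177) and 1.61 ± 0.32 for miR-99b-5p (adjusted p = 5.70e-05). miR-125a-5p at 0.29 (-0.30 to 0.87) and miR-125b-5p at 0.62 (-0.08 to 1.33) did not pass, and RLE scaling gave both the other sign (-0.42 and -0.09). Of all miRNAs, 12.8% rose and 5.94% fell, and the median change was 0.70. Relative to that median miR-99a-5p stood at 0.81, miR-100-5p at 0.51 and miR-99b-5p at 0.91, and the miR-125 guides at -0.41 (miR-125a-5p) and -0.07 (miR-125b-5p). This step shares its 3 mo libraries with the one before, so the fall and the rise are not independent. Without replicate 4 of every group, and with RLE scaling, miR-100-5p was not called at either step. In the Ta libraries alone the log2 changes were 0.40 for miR-99a-5p, 0.06 for miR-100-5p and 1.81 for miR-99b-5p, none called.

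Later, only miR-99b-5p among the 5 members was called. It fell by 1.01 ± 0.32 on the log2 scale at 12 mo against 6 mo (adjusted p = 0.0237, edgeR), where 1.25% of all miRNAs fell and 7.81% rose. At 12 mo against 1 mo it fell by 1.09 ± 0.31 (adjusted p = 0.0104), where 6.88% fell and 4.69% rose. The miR-125 guides were 0.76 ± 0.29 (miR-125a-5p, adjusted p = 0.0698) and 0.84 ± 0.35 (miR-125b-5p, adjusted p = 0.102) above their 1 mo levels at 12 mo, which did not pass, though DESeq2 called both (adjusted p = 0.00558 and 0.0148). miR-99b-5p lost its call at 12 mo against 6 mo without replicate 2, 3 or 4 of every group, and at 12 mo against 1 mo without replicate 3 or 4. The summed liver markers had a median of 208490 CPM at 12 mo, against 65493 CPM at 1 mo, the summed muscle markers 1233 CPM at 3 mo, against 408 CPM at 1 mo, and the detected miRNAs numbered 99.5 at 3 mo, against 216 at 1 mo; their part in these changes was not tested. Time after surgery, the age of the rats and the sampling session changed together and cannot be told apart.

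**Figure D2:**
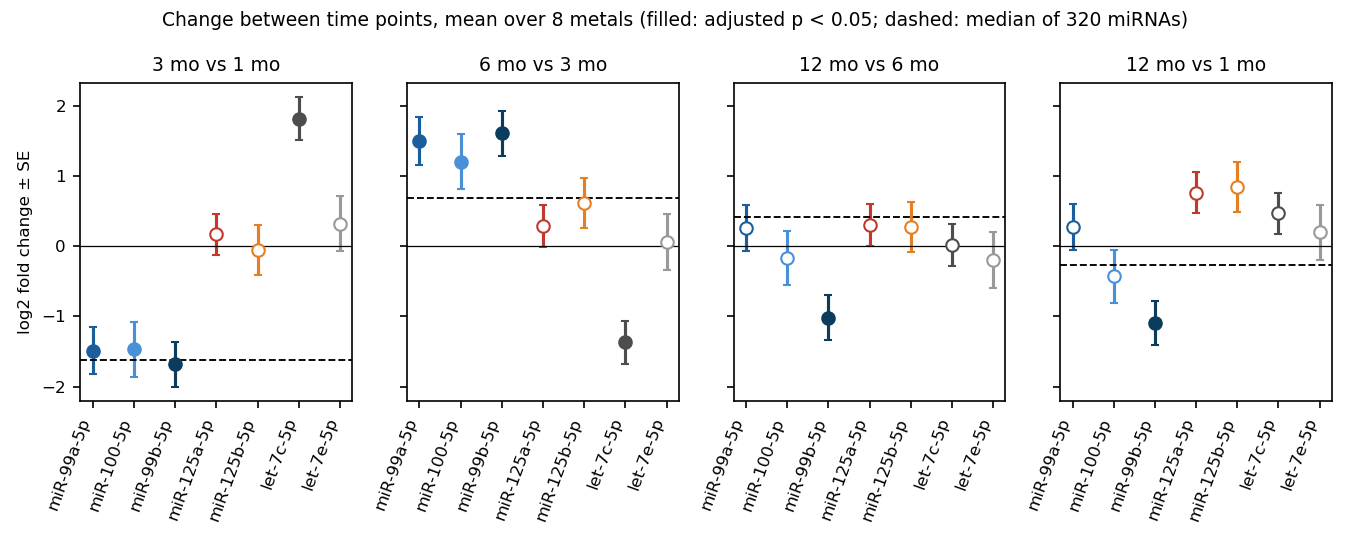
Log2 fold change ± SE between time points (edgeR, mean over 8 metals) for the 5 members and 2 partners; filled symbols have an adjusted p under 0.05 and the dashed line is the median of 320 miRNAs. The 3 miR-99/100 guides lie on the dashed line at 3 mo against 1 mo (-1.62), and both miR-125 guides and both let-7 guides lie above it.

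Of the relatives, most let-7 guides rose at 3 mo, and the miR-10 guides fell by no more than the median of all miRNAs. Of all tested miRNAs, 35.6% fell and 8.12% rose at 3 mo against 1 mo. At 6 mo against 3 mo 12.8% rose and 5.94% fell. let-7c-5p rose by 1.82 ± 0.30 (log2, adjusted p = 2.63e-07, edgeR) at 3 mo against 1 mo, and let-7e-5p at 0.32 did not pass. All 7 of the other let-7 guides measured rose at that step, from 1.21 for let-7d-5p to 2.40 for let-7a-5p, and 4 of the 7 (let-7a-5p, let-7b-5p, let-7f-5p and let-7i-5p) fell at 6 mo against 3 mo. let-7a-5p is made in part from the cluster that holds Mir100. The miR-10 guides, akin to miR-99/100 in sequence, fell at 3 mo against 1 mo (-1.61 for miR-10a-5p and -1.19 for miR-10b-5p) and rose at 6 mo against 3 mo (1.49 and 0.94). The median change of all tested miRNAs was -1.62 at the first of these steps and 0.70 at the second. miR-351-5p, a rodent guide with the miR-125 seed from the X chromosome, changed by -3.92 and 3.40 at these 2 steps, both called. Between these time points it thus did not follow the miR-125 guides. Of 11 other strands of member and let-7 hairpins 7 were tested. At 3 mo against 1 mo miR-99b-3p, miR-125a-3p, miR-125b-1-3p and miR-125b-2-3p fell, and let-7a-1-3p and let-7c-2-3p rose. Those last 2 have the same counts in every library, cannot be told apart and are named for let-7 genes outside the 3 clusters. The other strands that fell were sparse, miR-125a-3p being detected in 5 of 32 libraries at 3 mo, against 28 of 32 at 1 mo, while the libraries detected a median of 99.5 miRNAs at 3 mo, against 216 at 1 mo.

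Ratios of 2 miRNAs inside a library do not depend on its scaling, and several guides of 1 cluster changed relative to each other. The log2 ratio of miR-99b-5p to miR-125a-5p, cut from hairpins of the same 696 bases, had medians of -0.36, -2.72, -1.13 and -2.42 at 1, 3, 6 and 12 mo. It fell by 2.43 at 3 mo against 1 mo (permutation test within metals, 100000 draws, adjusted p = 5.6e-05 over 28 tests) and by 1.99 at 12 mo against 1 mo (adjusted p = 5.6e-05). It rose by 2.01 at 6 mo against 3 mo (adjusted p = 7.35e-04) and fell by 1.57 at 12 mo against 6 mo (adjusted p = 7.47e-04). The smallest adjusted p the 100000 draws gave was 5.6e-05, from a p of 1e-05, the smallest they can give. Thus all 4 time comparisons separated the outer guides of the compact cluster, and each call held without each replicate number in turn and without the near-empty libraries.

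miR-99a-5p to let-7c-5p, made from the same cluster on chromosome 11, had median log2 ratios of 0.54, -3.34, -0.09 and -0.04 at the 4 times. That ratio fell by 3.97 at 3 mo against 1 mo and rose by 3.94 at 6 mo against 3 mo (permutation test, adjusted p = 5.6e-05 for both). miR-125b-5p to let-7c-5p fell by 2.96 (adjusted p = 1.4e-04) and rose by 2.91 (adjusted p = 5.6e-05) at the same steps. miR-99b-5p to let-7e-5p fell by 1.78 at 3 mo against 1 mo (adjusted p = 0.00863) and by 1.38 at 12 mo against 1 mo (adjusted p = 8.4e-04), while miR-125a-5p to let-7e-5p passed at none of the 4 comparisons (differences of 0.61, -0.73, 0.59 and 0.47). The first of these 2 miR-99b-5p calls was lost without replicate 2, 3 or 4 of every group, and the second without replicate 4.

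Ratios within a seed family were tested in the same way for 2 of the 5 same-seed pairs. Ratios of miR-99b-5p to miR-99a-5p or miR-100-5p, and of let-7c-5p to let-7e-5p, were not computed. At 3 mo against 1 mo the log2 changes were 1.82 for let-7c-5p and 0.32 for let-7e-5p. For miR-99b-5p, miR-99a-5p and miR-100-5p they were -1.68, -1.48 and -1.47. At 12 mo against 1 mo these 3 guides stood at -1.09, 0.28 and -0.43. The median log2 ratio of miR-125b-5p to miR-125a-5p was -1.11, -1.40, -1.25 and -1.07 at the 4 times, and that of miR-100-5p to miR-99a-5p was -1.02, -1.16, -1.11 and -1.66. The mean of the miR-125b-5p to miR-125a-5p ratio still differed by -1.36 at 3 mo against 1 mo and by 1.25 at 6 mo against 3 mo (permutation test, adjusted p = 0.0326 for both), and each of these calls was lost without replicate 1 or 4, the first also without replicate 3. At 3 mo the lowest ratios, down to -12.6 for this pair, came from libraries with almost no counts of 1 guide. Same-cluster ratios had such lows at 3 mo too. They reached -14.9 for miR-125b-5p to let-7c-5p, -12.2 for miR-99b-5p to miR-125a-5p and -11.9 for miR-99a-5p to let-7c-5p. At 6 mo miR-99b-5p to miR-125a-5p reached 10.8 and miR-99a-5p to let-7c-5p 13.3. Both came from the Pb library of replicate 2, which had 0 counts of miR-125a-5p and let-7c-5p. miR-100-5p to miR-99a-5p fell by 0.77 at 12 mo against 1 mo (adjusted p = 4.8e-04) and by 0.46 at 12 mo against 6 mo (adjusted p = 0.0301), the last lost without replicate 2, 3 or 4. In all, 14 of 28 ratio tests were called between time points, and the number was 10 to 14 without each replicate number in turn.

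**Figure D3:**
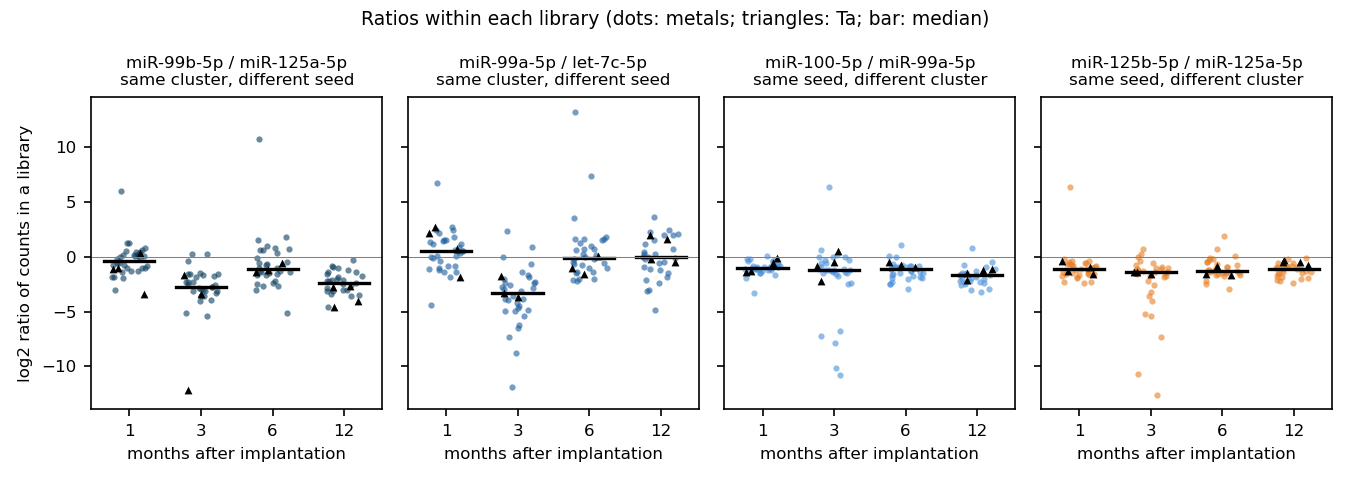
Log2 ratio of counts within each library by months after implantation, for 2 pairs from 1 cluster and 2 pairs with 1 seed; dots are metal libraries, triangles Ta libraries, bars the median. The plotted same-cluster medians move with time (miR-99a-5p to let-7c-5p 0.54 at 1 mo and -3.34 at 3 mo). The medians of the 2 plotted same-seed pairs lie between -1.66 and -1.02, and ratios of the other same-seed pairs were not computed. The same-cluster pair miR-125a-5p to let-7e-5p, not plotted, had medians of 4.97, 5.04, 4.68 and 5.45.

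Across libraries of the same time point, guides with the same seed mostly varied together. Spearman's rho and Pearson's r of log2 CPM were taken over 35, 32, 34 and 31 libraries above 20000 counts at 1, 3, 6 and 12 mo, for 21 pairs of the 7 guides, with permutation p-values adjusted over all 84. The 5 same-seed pairs had a median rho of 0.721 (0.201 to 0.914), and 18 of their 20 values were called, all positive. The 7 same-cluster pairs had a median rho of 0.276 (-0.570 to 0.653), with 10 of 28 called positive and 1 negative. Apart from the pairs of the compact cluster, these include miR-125b-5p or let-7c-5p, whose counts sum over loci. The 9 pairs with neither tie had a median of 0.141 (-0.530 to 0.490), with 7 of 36 positive and 2 negative. After subtracting the mean of each metal and time group the 3 medians were 0.688, 0.286 and 0.0788. These pairs share their libraries, depth and scaling, and the difference between the kinds of pair was not itself tested.

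miR-99a-5p and miR-100-5p, which differ by 1 base, had the highest rho of the 21 pairs at 1 and 3 mo, but not at 6 mo (miR-100-5p and miR-99b-5p, 0.736) or 12 mo (let-7c-5p and let-7e-5p, 0.823). Their rho was 0.914, 0.846, 0.698 and 0.821 at 1, 3, 6 and 12 mo (permutation test, adjusted p = 1.05e-04 each), and r was 0.938, 0.504, 0.683 and 0.893, or 0.912, 0.698, 0.666 and 0.873 without the 2 libraries farthest from the median. miR-125a-5p and miR-125b-5p had rho of 0.801, 0.588, 0.651 and 0.733 (adjusted p from 1.05e-04 to 0.00235) and r of 0.782, 0.406, 0.896 and 0.803. The 6 mo r was 0.499 without the 2 farthest libraries and 0.558 without the Pb library that lacked miR-125a-5p. The 3 mo r of this pair did not pass (adjusted p = 0.0562). In contrast, miR-99b-5p and miR-125a-5p of the compact cluster had rho of 0.408, 0.328, 0.145 and 0.261, called at 1 mo alone (adjusted p = 0.0372) with an r of 0.356 that did not pass (adjusted p = 0.078).

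Some same-cluster pairs did vary together. miR-100-5p and miR-125b-5p had rho of 0.609, 0.616, 0.478 and 0.638, called at all 4 times (permutation test, adjusted p up to 0.0132), with r of 0.646, 0.557, 0.395 and 0.712, of which the 6 mo value did not pass (adjusted p = 0.0535). miR-99a-5p and miR-125b-5p had rho of 0.518, 0.653, 0.323 and 0.627, called at all but 6 mo, with r of 0.578, 0.544, 0.236 and 0.735. let-7c-5p had a negative rho with all 3 miR-99/100 guides at each time point, mostly not called. miR-99a-5p and let-7c-5p had rho of -0.266, -0.570, -0.203 and -0.288, called at 3 mo (adjusted p = 0.00352; r = -0.432, adjusted p = 0.0417). miR-125b-5p and let-7c-5p had r of 0.747 at 6 mo but -0.0021 without the Pb library of replicate 2, so that value rested on 1 library.

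Likeness was also ranked over all miRNAs. It was the mean over the 4 time points of Spearman's rho, computed for 102 other miRNAs detected in at least 80% of the 132 libraries, and is a description without a test. Most like miR-99a-5p were miR-100-5p (0.820), miR-10a-5p (0.709) and miR-10b-5p (0.597). Most like miR-100-5p were miR-99a-5p (0.820), miR-10a-5p (0.714) and miR-10b-5p (0.669). miR-99b-5p was most like miR-10a-5p (0.652), miR-99a-5p (0.597) and miR-100-5p (0.579). All 3 miR-99/100 guides thus had each other or a miR-10 guide as nearest. For miR-125a-5p the nearest were miR-125b-5p (0.693), miR-10a-5p (0.474) and let-7e-5p (0.410), and for miR-125b-5p they were miR-125a-5p (0.693), miR-100-5p (0.585) and miR-10b-5p (0.551). miR-351-5p, which shares their seed, ranked 6th for miR-125a-5p (0.350) and 5th for miR-125b-5p (0.446). Seen from miR-99b-5p, its cluster mates miR-125a-5p (0.286) and let-7e-5p (-0.0997) ranked 24th and 65th.

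**Figure D4:**
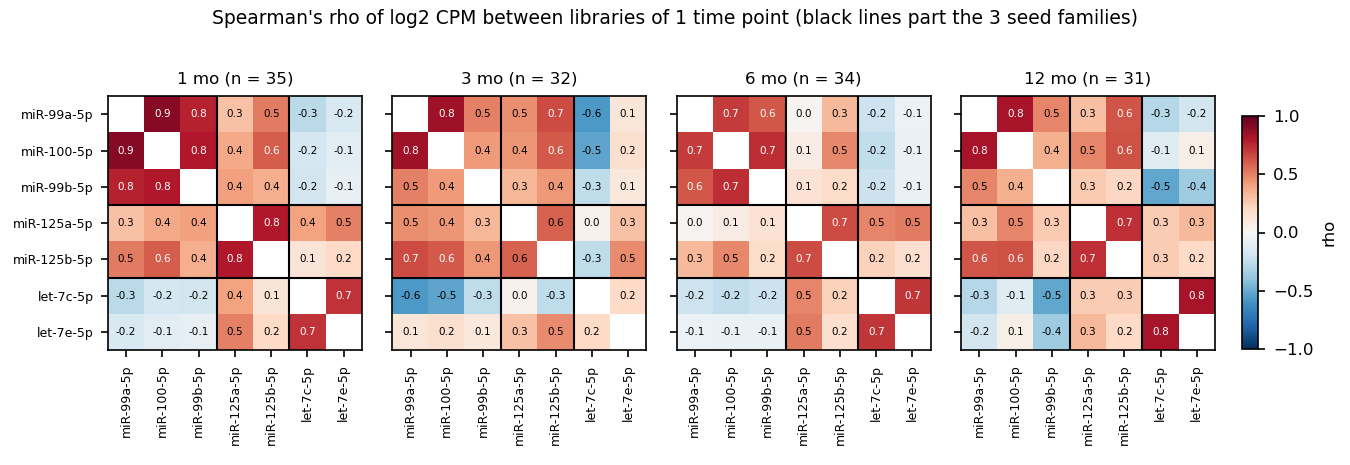
Spearman's rho of log2 CPM for each pair of the 7 guides over libraries above 20000 counts, 1 panel per time point; black lines part the miR-99/100, miR-125 and let-7 seed families. Pairs in the blocks along the diagonal had the highest median (0.721), but not every such pair was high. At 3 mo let-7c-5p with let-7e-5p was at 0.201, below miR-99a-5p with miR-125b-5p outside the blocks (0.653). miR-99/100 against let-7c-5p is negative in all 4 panels.

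Against Ta, no metal gave a call for any member. Each metal was compared with Ta at each time point by edgeR on the libraries of that time point, 31 comparisons in all. Of 155 tests of members, 0 were called, where 0.193% of all tests were, and 18 had an unadjusted p under 0.05 (8 higher and 10 lower), where 10.5% of all tests did. The smallest adjusted p was 0.146, for miR-99a-5p in Pb at 6 mo. DESeq2 on the same libraries called 9 of the member tests, where it called 5.05% of all tests. The median SE of the log2 change ran from 0.84 for miR-99a-5p to 0.98 for miR-125a-5p.

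At 6 mo the Ta group had the lowest mean log2 CPM of miR-99a-5p among the 9 groups. Fe replicates 2 and 3, at 6954 and 7243 CPM, still lay below all 3 Ta libraries. W replicate 1 (12361 CPM) and Fe replicate 1 (12894 CPM) lay among them. The values were 18733, 15994, 69086 and 77619 CPM in Pb, 23355, 29465, 36459 and 71637 CPM in Ni, and 79365, 33556, 35763 and 12065 CPM in Cu, against 14195, 10488 and 8067 CPM in Ta. All 4 libraries each of Pb, Ni, DU, Al and Co lay above the 3 Ta libraries, and 1 Cu library lay among them. The lowest values were 15730 CPM in DU, 20999 CPM in Al and 14362 CPM in Co. Separation from Ta was therefore not particular to Pb and Ni. The share of all miRNAs that separated in this way was not counted. These comparisons share the same Ta libraries. The Pb libraries detected 88, 70, 96 and 89 miRNAs, against 198, 223 and 168 in Ta. The log2 differences from Ta were 2.32 in Pb, 2.13 in Cu, 1.99 in Ni, 1.98 in DU, 1.66 in Al, 1.47 in Co, 1.03 in Fe and 0.68 in W. The first 5 had an unadjusted p under 0.05 (edgeR, from 0.00646 in Pb to 0.0402 in Al), and the smallest adjusted p was 0.146, in Pb. With RLE scaling the Pb difference was called (log2 2.82, adjusted p = 0.031), and DESeq2 called Pb (log2 3.00, adjusted p = 8.54e-04) and DU (log2 2.48, adjusted p = 0.0164). miR-100-5p in Ni at 6 mo was 2.44 ± 0.86 above Ta (unadjusted p = 0.00688, adjusted p = 0.739).

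At 12 mo Ta had the highest mean log2 CPM of 8 groups for miR-99a-5p, miR-100-5p and miR-125b-5p. miR-100-5p had 3769, 5550, 1331 and 2225 CPM in Pb, against 49185, 21505, 10597 and 12230 CPM in Ta. miR-125b-5p had 3247, 4623, 1672 and 1696 CPM in Pb, against 7901, 9076, 11690 and 30743 CPM in Ta. The Pb and Ta libraries did not overlap for either guide, but how many of all miRNAs separated in this way was not counted. Nor was this particular to Pb. For miR-100-5p all W libraries (3090 to 8752 CPM, 1 of them near-empty) and all Cu libraries (3691 to 8837 CPM) also lay below all Ta libraries. For miR-125b-5p all Cu libraries (5329 to 6853 CPM) did so. In Pb the log2 difference from Ta was -2.55 ± 0.91 for miR-100-5p (unadjusted p = 0.00758, edgeR, adjusted p = 0.156) and -2.05 ± 0.70 for miR-125b-5p (unadjusted p = 0.00562, adjusted p = 0.156). For miR-100-5p the unadjusted p was also under 0.05 in W (-2.36), Cu (-1.90) and Al (-1.81), and for miR-125b-5p in Al (-1.95), Cu (-1.44) and W (-1.43). These comparisons share the 4 Ta libraries. DESeq2 called miR-100-5p in Pb (log2 -2.73, adjusted p = 0.0103) and miR-125b-5p in Pb (-2.35, adjusted p = 0.00241) and Al (-1.97, adjusted p = 0.0208). Without the low-count filter edgeR called miR-100-5p in Pb (-2.67, adjusted p = 0.0121) and miR-99a-5p in W (-2.30, adjusted p = 0.046).

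miR-99b-5p was above Ta in 6 of 7 metals at 12 mo, none called. It had 17002, 4568, 1618 and 7189 CPM in DU and 2579, 18619, 3471 and 2867 CPM in Fe, against 1748, 1867, 1224 and 1508 CPM in Ta. The log2 difference from Ta was 2.16 ± 0.76 in Fe (unadjusted p = 0.00722, edgeR, adjusted p = 0.239) and 1.86 ± 0.75 in DU (unadjusted p = 0.018, adjusted p = 0.227). The Fe mean leans on replicate 2. DESeq2 called both Fe (log2 1.93, adjusted p = 0.0322) and DU (1.92, adjusted p = 0.0265). With edgeR the DU difference was called without the near-empty libraries (log2 2.49, adjusted p = 0.0172) and without DU replicate 3 (log2 2.83, adjusted p = 0.0169). Its cluster mate miR-125a-5p was at -0.15 (DU) and 0.48 (Fe) in the same comparisons. miR-125a-5p had no unadjusted p under 0.05 in any of its 31 comparisons.

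Averaged over the time points, 0 of 40 member tests were called by edgeR and 0 by DESeq2, where edgeR called 1.09% of all tests, and 2 had an unadjusted p under 0.05, where 10.04% of all tests did. Those were miR-100-5p in Co (log2 -1.38 ± 0.56, unadjusted p = 0.0156, adjusted p = 0.167) and miR-125a-5p in Pb (log2 -0.96 ± 0.42, unadjusted p = 0.0256, adjusted p = 0.228). miR-99b-5p averaged between 0.03 (Co) and 0.97 (Ni) above Ta, none called. Whether the difference from Ta changed between time points was tested for each metal, with 0 members called, where 1.64% of all tests were, and a smallest adjusted p of 0.127 (miR-99a-5p). Of 56 tests of a within-library ratio in a metal against Ta, 0 were called (permutation test, smallest adjusted p = 0.206). The smallest unadjusted p was 0.00858, for miR-100-5p to miR-99a-5p in Cu, a difference of -1.16 in mean log2 ratio.

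**Figure D5:**
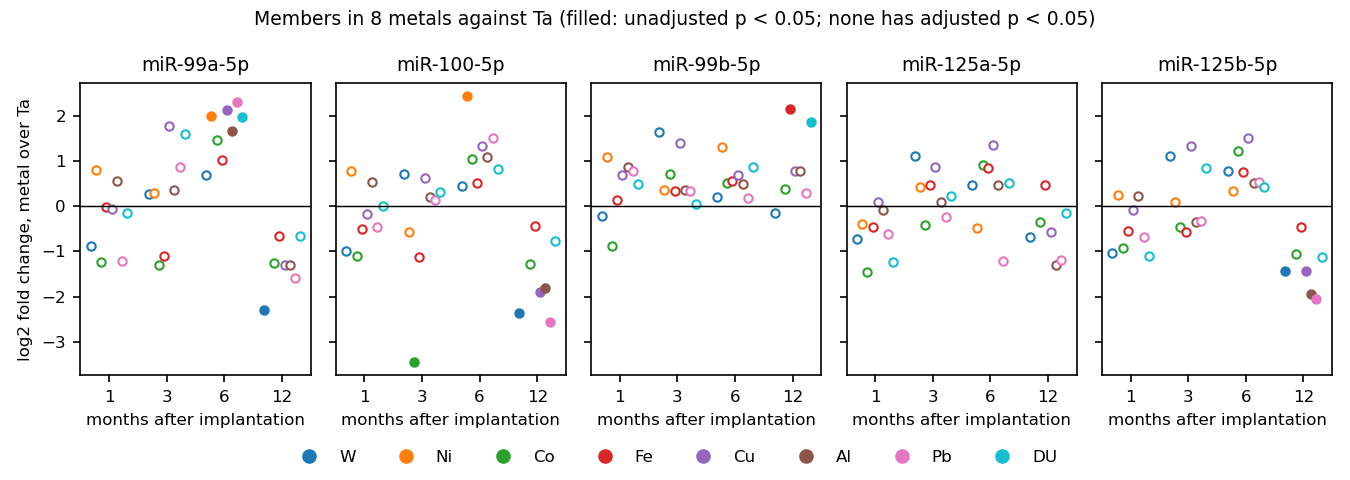
Log2 fold change of each metal over Ta for the 5 members at each time point (edgeR); filled symbols have an unadjusted p under 0.05 and none has an adjusted p under 0.05. The comparisons at 1 time point share their Ta libraries. The Ta mean log2 CPM of miR-99a-5p was lowest of 9 groups at 6 mo and highest of 8 at 12 mo.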

How the data were processed

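The deposited table holds raw counts per mature miRNA, 471 in all, and all columns were matched to samples by name. Per the labels' protocols, total RNA from serum went into a Norgen small RNA kit and was sequenced on a NextSeq 500. Per the submitters' processing notes the genome build was Rnor_6.0; the sources used here do not name the aligner, the counter or its mismatch rule. Coordinates above are RefSeq's GRCr8 and were not converted.

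Analysis used R 4.3.3 with edgeR 4.0.16 and DESeq2 1.42.0, and Python 3.11.15 with scipy 1.17.1. Low counts were filtered with filterByExpr (minimum count 10, minimum total 15), leaving 320 miRNAs over all libraries. Libraries were scaled with TMM factors, tests were quasi-likelihood tests, and p-values were adjusted within each comparison over all miRNAs tested. CPM values carry TMM scaling, and log2 CPM for correlations used a prior count of 2. Ratios used log2 counts plus 0.5 in libraries with at least 10 counts of the pair. The model fits were tested on simulated data.

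Members, relatives, tests and named miRNAs (all members and partners, called relatives, the 3 most alike) were chosen with earlier results of these data known. Totals from 518 counts limit precision in 6 libraries. Alternatives tried were RLE size factors, no filter, DESeq2, a replicate block, leaving out libraries or replicate numbers, fits of 2 groups, Ta alone, other pseudocounts and minima. Chosen after seeing the data were library totals without TMM, the test of change between time points, correlations on deviations from group means and the analysis without 1 Pb library. The design called for 8 rats a group, and its wording leaves unclear whether the same rats were bled at several times; libraries were treated as independent. miR-486-5p of the erythrocyte list was not analysed here.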

Additional observations from a re-analysis of the deposited data

Results flagged for a closer look

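Within groups of 4 libraries, a library was singled out when its gap to the nearest other library took a share of the group's range of log2 CPM above Dixon's 95% critical value. That held for 16 of 165 combinations of a member and a group, in 13 libraries; chance alone gives about 1 in 20. The lowest library stood apart in 12 and the highest in 4, and 8 were in near-empty libraries. Values are CPM.

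Near-empty libraries stood apart low with 1710 for miR-99a-5p, 0 for miR-99b-5p and 569 for miR-125a-5p in W at 12 mo replicate 3. They did so with 168 for miR-100-5p and 0 for miR-125a-5p in Co at 1 mo replicate 1. At 3 mo there were 0 for miR-99b-5p in DU replicate 4, 0 for miR-125a-5p in Ni replicate 3 and 0 for miR-125b-5p in Ta replicate 3. A count of 0 in so shallow a library does not show that the guide is absent.

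Among deeper libraries, miR-99a-5p was high in Fe at 3 mo replicate 3 (11800) and low in DU at 6 mo replicate 3 (15700). miR-99b-5p was high in Fe at 12 mo replicate 2 (18600) and low in Al at 3 mo replicate 2 (639). miR-125a-5p was high in Fe at 1 mo replicate 4 (14800) and 0 in Pb at 6 mo replicate 2. miR-125b-5p was high in Fe at 6 mo replicate 4 (12100) and low in Pb at 3 mo replicate 3 (124). All 4 high values came from Fe groups, at different time points and in different miRNAs. This was noticed after the values were seen and was not tested. The Fe library at 3 mo had 77112 counts. Against Ta, edgeR as analysed called no member in Fe, and DESeq2 called miR-99b-5p at 12 mo.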

How the results depend on the processing

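Of members against Ta at 1 time point, edgeR called 0 as analysed, 1 with RLE size factors, 2 without the low-count filter, 9 with DESeq2 and 1 without the near-empty libraries. Leaving out each library in turn gave 0 to 1 calls, the 1 being without DU at 12 mo replicate 3. Averages over time gave 0 under all alternatives. At 3 mo against 1 mo and at 6 mo against 3 mo, 3 members were called, 2 to 3 without each replicate number, 2 with RLE size factors and 0 in the Ta libraries alone. DESeq2 and library totals alone each called 4 at the first of these steps, adding miR-125a-5p as higher, and 3 at the second. At 12 mo against 6 mo, 1 was called, 0 without the filter, 0 in Ta alone and 0 to 1 without each replicate number. At 12 mo against 1 mo, 1 was called, 3 with DESeq2, 2 with library totals alone (chosen after seeing the data), 0 in Ta alone and 0 to 1 without each replicate number. Ratio calls between times numbered 14, and 10 to 14 without each replicate number; those against Ta stayed at 0. No called value changed sign.

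Deviations of libraries with the same replicate number had a median correlation of -0.0086 over 198 same-metal pairs (-0.351 to 0.344). Over 116 pairs of a metal with Ta it was 0.0218 (-0.268 to 0.633). With so wide a spread these values cannot show whether libraries of the same number came from the same rat. With the replicate number as a block, member calls were 0 at single time points, 0 for averages and 3, 3, 1 and 1 for the 4 time comparisons. Depth limits the 3 mo libraries most, with a median of 286094 counts.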

Other observations

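Some 3 mo libraries that were not near-empty held almost no reads of 1, 2 or 3 members while other members were counted more often. Among the 132 libraries above 20000 counts, a member had fewer than 20 counts in 14 of 660 cases, 12 of them at 3 mo, and in 9 libraries. Co at 3 mo replicate 1 had 0 counts of miR-100-5p beside 910 of miR-99a-5p and 973 of miR-99b-5p. Al at 3 mo replicate 1 had 7 counts of miR-99a-5p beside 1043 of miR-99b-5p and 3738 of miR-125a-5p. Fe at 3 mo replicate 1 had 0 counts of miR-125b-5p and 3 of miR-100-5p beside 3129 of miR-125a-5p. Pb at 3 mo replicate 3 had 11 counts of miR-99a-5p, 11 of miR-100-5p and 12 of miR-125b-5p. These 9 libraries had 70454 to 455851 counts, below the median of 685384.5 over all libraries, and detected 70 to 88 miRNAs each. Low counts in them do not show that a guide is absent. These cases were chosen after their values were seen.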
